A study of Mus musculus with 11 samples.

Results

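Round spermatids of *Dnmt3L* heterozygous males were compared with spermatocytes of the same genotype. The comparison used 5 of the 11 arrays of the series, chosen by their titles and not by any measured value. Of these, 3 were labelled *Dnmt3L* heterozygous spermatids (replicates 1, 2 and 3) and 2 were labelled *Dnmt3L* heterozygous spermatocytes (replicates 1 and 2). The paper describes 3 heterozygous spermatocyte preparations, while the labels used here hold 2. Each array held RNA from 1 preparation of cells pooled from 10 C57Bl/6 mice aged 8 to 12 weeks. Both groups carried 1 wild type allele and 1 allele in which a *LacZ* cassette disrupts a coding exon, so the comparison is of cell type within a heterozygous background. The source labels call the cells round spermatids and pachytene spermatocytes. The other 6 arrays held 3 wild type spermatid and 3 wild type spermatocyte preparations of the same design, and served here to estimate the spread and to test whether the difference depended on genotype. The cell types were run on separate chips, so in every difference below the chip and the cell type cannot be told apart.

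Pachytene spermatocytes are germ cells in the prophase of meiosis, when homologous chromosomes are synapsed and recombine and when the X and Y chromosomes are transcriptionally silenced within the XY body. The divisions that follow give round spermatids, the haploid cells that build the acrosome and the flagellum and later replace their histones with transition proteins and protamines. Many of the genes needed for this are transcribed only in germ cells, and in the mouse a number of them depend on the transcription factors CREM and RFX2. Elutriation sorts testis cells by size, and the fractions are enriched for a cell type, not pure. In RNA from such a fraction, fewer cells of a type and less RNA per cell cannot be told apart.

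Levels are log2 values that were normalised so that every array had the same distribution, with a median of 6.87. Differences are given as the mean of the spermatid arrays minus the mean of the spermatocyte arrays on this log2 scale, each with its standard error (SE). A probe was called when the adjusted p of limma's moderated test was under 0.05, after Benjamini-Hochberg adjustment over 27986 kept probes and 4 contrasts together. Values on single arrays are listed in the order of the replicate numbers. The number of arrays, most of all the 2 spermatocyte arrays, limits the precision.

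The *Dnmt3l* probe lies in the last exon, downstream of the disruption, and is no check of the genotype. It read 10.66, 9.78 and 10.96 on the spermatid arrays and 8.82 and 8.66 on the spermatocyte arrays. The spermatid arrays were all above the spermatocyte arrays, and the difference of 1.73 ± 0.32 (SE) was called (adjusted p = 0.0103). The cell type labels were set beside markers, whose lists were chosen with earlier results of these data known. They are therefore no independent check of the labels. Among round spermatid markers, 21 of 25 tested genes were called higher in spermatids and 0 lower (18 to 22 and 0 with an array left out), whereas 10.5% of all 14187 named genes were called higher and 11.0% lower. The median difference of these markers was 1.78, against -0.02 over all genes. *Acrv1*, an acrosomal vesicle protein, read 13.49, 12.76 and 13.18 in spermatids and 11.49 and 11.06 in spermatocytes. Among the markers of later, condensing spermatids, 7 of 13 were called higher and 0 lower, with a median of 1.55 (5 to 7 and 0 to 1 with an array left out).

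The pachytene markers did not separate the groups in the same way. Of 25 listed, 22 had a probe and 17 passed the filter on low values, so that *Sycp1*, *Hormad1* and *Dmc1* were among those not tested. Of the 17, 1 was called higher and 1 lower (5.88% each), against 10.5% and 11.0% of all genes. The median difference was -0.03, and with an array left out the counts were 1 and 0 to 3. The mean log2 level of the 17 genes was 10.04 to 10.28 on the spermatid arrays and 10.26 to 10.35 on the spermatocyte arrays, so the ranges overlapped. *Hspa2*, a chaperone of the synaptonemal complex, read 13.78, 13.78 and 13.74 in spermatids and 13.78 on both spermatocyte arrays, close to the top of the scale. *Sycp3*, a protein of the chromosome axis, read 6.82 to 7.06 on all 5 arrays, near the median of an array, and gives no information on either fraction.

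Spermatid array 2 stood apart from the other spermatid arrays. Across all probes it correlated with the heterozygous spermatocyte arrays at r = 0.952 to 0.953, against 0.884 to 0.889 for spermatid arrays 1 and 3. On an axis that runs from the wild type spermatocyte mean at 0 to the wild type spermatid mean at 1, the spermatid arrays lay at 1.08, 0.684 and 1.00 and the spermatocyte arrays at 0.0859 and 0.0893. Array 2 was the lowest spermatid array for 84.7% of the probes called higher and the highest for 71.8% of those called lower. The wild type spermatid preparation of the same number lay at 0.768, against 1.04 and 1.19 for the other wild type spermatid preparations. Leaving out heterozygous spermatid array 2 gave 7507 called probes in place of 4983. Leaving out spermatocyte array 1 or 2 had the opposite effect, with 1759 or 1655 called probes. Over all named genes, the share called was 14.7% higher and 16.5% lower without spermatid array 2, 4.58% and 3.31% without spermatocyte array 1, and 3.96% and 2.91% without spermatocyte array 2. The count of each gene list below is therefore followed by its range when each of the 5 heterozygous arrays was left out in turn. For all 41 lists the fewest calls, ties included, came without a spermatocyte array, and for 40 of them the most came without spermatid array 2.

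Some markers of other testis and blood cells also differed between the fractions. Of 6 red blood cell markers 2 were called higher in spermatids, of 11 macrophage markers 4, of 10 peritubular myoid markers 2, of 10 endothelial markers 1, and none of these lists had a member called lower. With an array left out the numbers higher were 2 for red blood cells, 2 to 3 for macrophages, 1 to 3 for peritubular cells and 0 to 2 for endothelium. The mean log2 level of the macrophage markers was 8.51 to 8.55 in spermatids and 7.26 to 7.30 in spermatocytes, and that of the red blood cell markers was 9.07 to 9.19 and 7.39 to 7.53. Most of the red blood cell gap came from 2 globin genes, *Hba-a1* (4.49) and *Hbb-bs* (4.41). The median difference of the 6 markers was 0.48, and 4 were not called. Peritubular markers averaged 8.46 to 8.77 in spermatids and 7.72 to 7.74 in spermatocytes, with a median difference of 0.71 and 8 of 10 not called. The 20 Sertoli cell markers had 0 calls in either direction, and their mean level was 7.75, 8.91 and 8.54 on the spermatid arrays, a wider spread than the 8.11 and 8.19 of the spermatocyte arrays. *Clu*, one of the most abundant Sertoli transcripts, read 9.28, 12.12 and 11.09 in spermatids and 10.65 and 10.69 in spermatocytes. Sertoli and Leydig markers were highest on spermatid array 2, the Leydig mean being 8.57 there and 7.71 to 7.81 on the other 4 arrays. Of 10 Leydig markers 0 were called higher and 1 lower (10.0%), and of 19 spermatogonium markers 2 were higher and 2 lower (10.5% each). The endothelial share higher (10.0%), the Leydig share lower and both spermatogonium shares were near the 10.5% higher and 11.0% lower of all genes. With an array left out, 0 to 1 Leydig markers were lower, and 1 to 3 spermatogonium markers were higher and 0 to 2 lower. The part of these cells in the results below was not tested.

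**Figure D1:**
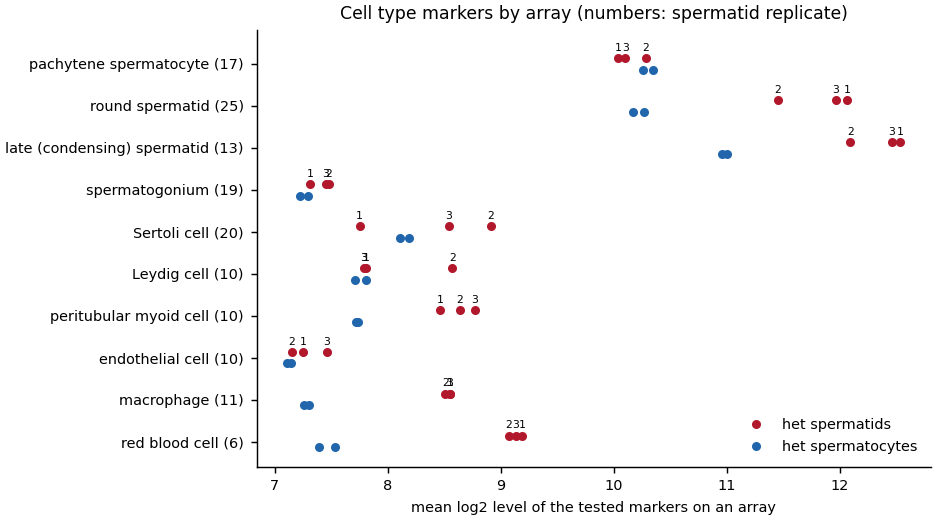
Mean log2 level of the tested markers of 10 cell types on each heterozygous array (x axis), with spermatid arrays above spermatocyte arrays in each row and the number of tested markers in brackets. The means of round and late spermatid, macrophage, red blood cell and peritubular markers were higher on all 3 spermatid arrays, while Sertoli markers spanned 7.75 to 8.91 there. The red blood cell mean was raised mostly by 2 globin genes, and the median difference of its markers was 0.48.

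Of the 27986 probes, 4983 were called (17.8%), of which 2422 were higher in spermatids (8.65%) and 2561 lower (9.15%). Without spermatid array 2 the counts were 3506 higher and 4001 lower, without spermatocyte array 1 they were 991 and 768, and without spermatocyte array 2 they were 866 and 789. When the arrays were normalised by cyclic loess in addition, 62.5% of the calls were higher in place of 48.6%. The numbers of calls in each direction were similar, but the sizes were not. The median called difference was 1.20 for probes that rose and -0.70 for probes that fell. A difference of at least 1 was reached by 1466 probes called higher and 489 called lower, and of at least 2 by 352 called higher and 9 called lower. On every called probe the spermatid and spermatocyte arrays did not overlap, which was so for 51.0% of all probes and for 54.8% of all genes.

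**Figure D2:**
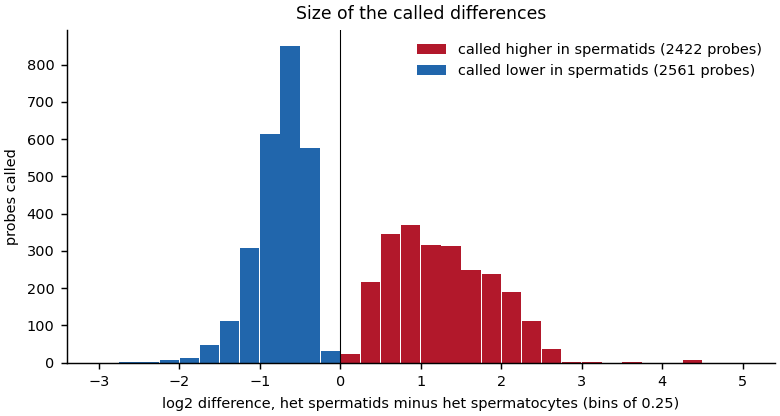
Number of called probes (y axis) by log2 difference, heterozygous spermatids minus heterozygous spermatocytes, in bins of 0.25 (x axis). The 2561 probes called lower gather between 0 and -1, and the 2422 called higher spread from 0 to beyond 2.

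The largest increases were in blood and matrix genes. *Hba-a1*, a chain of adult haemoglobin, read 12.85, 12.67 and 12.73 in spermatids and 8.12 and 8.41 in spermatocytes, a 22.4-fold difference. *Hbb-bs*, its partner chain, rose by 4.41 ± 0.32 (SE, adjusted p = 2.32e-04). The globin genes have near-identical copies, so the transcript read by these probes is uncertain. *Dcn*, the matrix proteoglycan decorin, followed at 3.06 ± 0.61, and *Lyz2*, the lysozyme of macrophages, rose by 2.72 ± 0.42. These genes stand on the red blood cell, peritubular and macrophage lists, whose levels are given above, and their source was not tested. The other macrophage markers called higher were *Aif1*, *C1qc* and *C1qb*, and *Actg2*, a smooth muscle actin, read 12.89, 12.27 and 12.93 in spermatids and 10.61 and 10.50 in spermatocytes. *Aif1* and *Actg2* are expressed in the haploid germ cells of rodents too, so they do not mark the other cell type alone.

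The rest of the largest increases stood on none of these marker lists of other cells. *Prr30*, a proline-rich protein gene, read 12.63, 12.25 and 12.34 in spermatids and 9.81 and 9.58 in spermatocytes, with a difference of 2.71 ± 0.19 (adjusted p = 2.19e-04). *Akap1*, which anchors protein kinase A to mitochondria, read 13.18, 12.45 and 12.96 against 10.31 and 10.05 in spermatocytes. In both genes array 2 was the lowest spermatid array and still lay above both spermatocyte arrays. The rest also held *Ace3*, related to angiotensin-converting enzyme, at 2.82 ± 0.32, and *Mical3*, a monooxygenase that acts on the actin cytoskeleton, at 2.75 ± 0.34. *Paqr5*, a membrane progestin receptor, rose by 2.68 ± 0.52, *Lrrc8b*, a subunit of volume-regulated anion channels, by 2.61 ± 0.31, and *Spata3*, a spermatogenesis-associated gene, by 2.66 ± 0.44. *1700013G24Rik* and *4930471G03Rik*, which carry no assigned name, rose by 2.74 ± 0.33 and 2.70 ± 0.38.

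Of 16 sperm chromatin genes tested, 6 were called higher (37.5%) and 1 lower (6.25%), with a median difference of 1.26. Over all genes 10.5% were called higher and 11.0% lower. The counts were 2 to 6 higher and 0 to 1 lower with an array left out, the number higher being 2 without either spermatocyte array. *Prm3*, a protamine-related gene of the protamine cluster, read 12.25, 11.13 and 12.05 in spermatids and 9.28 and 9.50 in spermatocytes (difference 2.42 ± 0.44, adjusted p = 0.0103). *Cdyl*, a chromodomain protein linked to histone acetylation in elongating spermatids, rose by 2.67 ± 0.38, and *Chd5*, a remodelling factor needed for histone removal in the mouse, by 1.85 ± 0.40. *H1f7*, a linker histone of spermatids, rose by 2.06 ± 0.36, and the histone variants *H2al2a* and *H2bl1* by 1.75 ± 0.48 and 1.68 ± 0.37.

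The transition proteins and the main protamines were not called. *Tnp2* read 12.66, 12.32 and 12.70 in spermatids and 11.00 and 11.14 in spermatocytes, with no overlap and an adjusted p of 0.0521. *Prm2* read 13.21, 12.95 and 13.10 in spermatids and 11.49 and 11.38 in spermatocytes (adjusted p = 0.0755), and *Tnp1* 12.83, 12.57 and 12.91 against 11.75 and 11.73 (adjusted p = 0.237). These values stood apart in the heterozygous arrays, while the SE of 0.42 to 0.51 came from the spread pooled over all 4 groups. *Prm1* read 12.91, 13.22 and 12.33 in spermatids and 12.39 and 12.56 in spermatocytes, and here the groups overlapped. *H2bc1*, a testis variant of histone H2B that is deposited in meiotic cells, was the member called lower, at -0.23 ± 0.06.

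Acrosome genes were called higher in 16 of 30 cases (53.3%) and lower in 1 (3.33%), against 10.5% and 11.0% of all genes. Their median was 0.76, and the counts were 12 to 18 and 0 to 2 with an array left out. *Spaca4*, a protein of the sperm acrosome, read 12.08, 11.31 and 12.23 in spermatids and 9.53 and 9.65 in spermatocytes. *Lyzl4*, a lysozyme-like acrosomal protein, read 12.95, 12.27 and 12.95 against 10.84 and 10.58 (difference 2.01 ± 0.22, adjusted p = 0.00149). In both the lowest spermatid array was array 2. *Prss55*, a serine protease, rose by 2.14 ± 0.34, *Eqtn*, the acrosomal protein equatorin, by 2.03 ± 0.35, and *Ccin*, calicin of the sperm head cytoskeleton, by 1.99 ± 0.26. Other acrosome genes were already high in spermatocytes. *Acrbp*, which binds the precursor of acrosin, read 13.05, 12.81 and 13.07 in spermatids and 12.71 and 12.58 in spermatocytes, and *Acr*, acrosin itself, read 11.82, 11.48 and 12.01 against 11.51 and 11.49, neither of them called. *Spesp1*, a protein of the equatorial segment, fell by 0.51 on the log2 scale (SE 0.13).

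Genes of the accessory structures of the flagellum were called higher in 18 of 37 cases (48.6%) and lower in 1 (2.70%). Over all genes the shares were 10.5% and 11.0%. The median of the list was 0.72, and the counts were 13 to 24 and 0 to 1 with an array left out. *Akap3*, an anchoring protein of the fibrous sheath, read 12.81, 12.23 and 12.88 in spermatids and 10.15 on both spermatocyte arrays (difference 2.49 ± 0.22, adjusted p = 5.50e-04). *Akap4*, its X-linked partner, had 2 probes that rose by 2.91 ± 0.50 and 1.89 ± 0.32. The testis-specific serine kinases *Tssk6*, *Tssk4* and *Tssk3* rose by 2.56 ± 0.43, 2.42 ± 0.31 and 1.99 ± 0.23. *Smcp*, of the mitochondrial capsule, read 12.57, 12.33 and 12.94 in spermatids and 10.55 and 10.42 in spermatocytes, and *Odf1*, of the outer dense fibres, rose by 1.55 ± 0.20. *Prkaca*, the catalytic subunit of protein kinase A, fell by 0.48 (SE 0.13).

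The axoneme is the microtubule structure that moves the flagellum. Of 42 genes for axonemal dyneins, radial spokes and their assembly, 3 were called higher and 8 lower, where 10.5% and 11.0% of all genes were called, with a median of -0.24. *Dnah8*, a heavy chain of the outer dynein arm, read 11.46, 12.63 and 11.66 in spermatids and 13.12 and 13.02 in spermatocytes. *Iqcg*, of the nexin-dynein complex, fell by 1.27 (SE 0.31) and *Cfap65* by 0.98 (SE 0.25). *Dnali1*, a light intermediate chain, fell by 0.81 (SE 0.17) on the probe used for it, but the average of its probes did not fall. *Dnah9*, another dynein heavy chain, rose by 1.20 ± 0.30 and *Cfap58* by 0.99 ± 0.15. Of 36 genes of intraflagellar transport and the BBSome, which carry cargo during cilium assembly, 1 was called higher and 10 lower, with a median of -0.32. *Bbs9* read 8.15, 8.51 and 8.18 in spermatids and 9.30 and 9.45 in spermatocytes (difference -1.10 ± 0.17, adjusted p = 0.00562), and *Ift122* fell by 0.97 (SE 0.14). *Kifap3*, the accessory subunit of kinesin-2, rose by 1.00 ± 0.26. With an array left out the axoneme had 1 to 3 higher and 1 to 10 lower, with 1 and 1 without spermatocyte array 1, and transport had 0 to 4 higher and 6 to 14 lower.

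Of 23 sperm ion channels and transporters, 8 were called higher (34.8%) and 0 lower, against 10.5% and 11.0% of all genes. The median of the list was -0.04. The counts were 6 to 8 and 0 to 2 with an array left out. *Slc22a14*, a mitochondrial riboflavin transporter of mouse sperm, read 11.91, 11.74 and 11.79 in spermatids and 9.37 and 9.22 in spermatocytes (difference 2.52 ± 0.14, adjusted p = 1.17e-04). Subunits of the CatSper calcium channel differed among themselves. *Catsper4*, *Catsper3* and *Catsper1* rose by 2.16 ± 0.24, 1.95 ± 0.22 and 1.93 ± 0.36, and *Efcab9*, a calcium sensor of the channel, by 1.80 ± 0.22. *Catsper2* read 13.44, 13.17 and 13.37 in spermatids and 13.69 and 13.38 in spermatocytes and was not called. *Kcnu1*, the pore of the sperm potassium channel, rose by 1.81 ± 0.20. Of 15 genes of sperm-egg adhesion and fusion, 5 were called higher (33.3%) and 1 lower (6.67%), with a median of 0.03. The counts were 4 to 5 and 0 to 1 with an array left out. The testis chaperones *Calr3* and *Pdilt* rose by 2.26 ± 0.30 and 1.96 ± 0.17, *Dcst1* by 1.95 ± 0.24 and *Adam1a* by 1.95 ± 0.31, while *Ly6k* fell by 0.66 (SE 0.13).

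Of 15 glycolysis isozymes, 3 were called higher and 0 lower, with a median of 0.30 (2 to 4 and 0 with an array left out). *Gapdhs*, the sperm form of glyceraldehyde-3-phosphate dehydrogenase, read 12.72, 11.88 and 12.70 in spermatids and 9.88 and 9.78 in spermatocytes, a 6.09-fold difference (adjusted p = 0.00222). *Pkm*, a pyruvate kinase, rose by 2.13 ± 0.33 and *Hk1*, a hexokinase, by 0.76 ± 0.14. *Ldhc*, the germ cell lactate dehydrogenase that is transcribed from the pachytene stage, read 13.28, 13.25 and 13.41 in spermatids and 13.29 and 13.34 in spermatocytes.

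**Figure D3:**
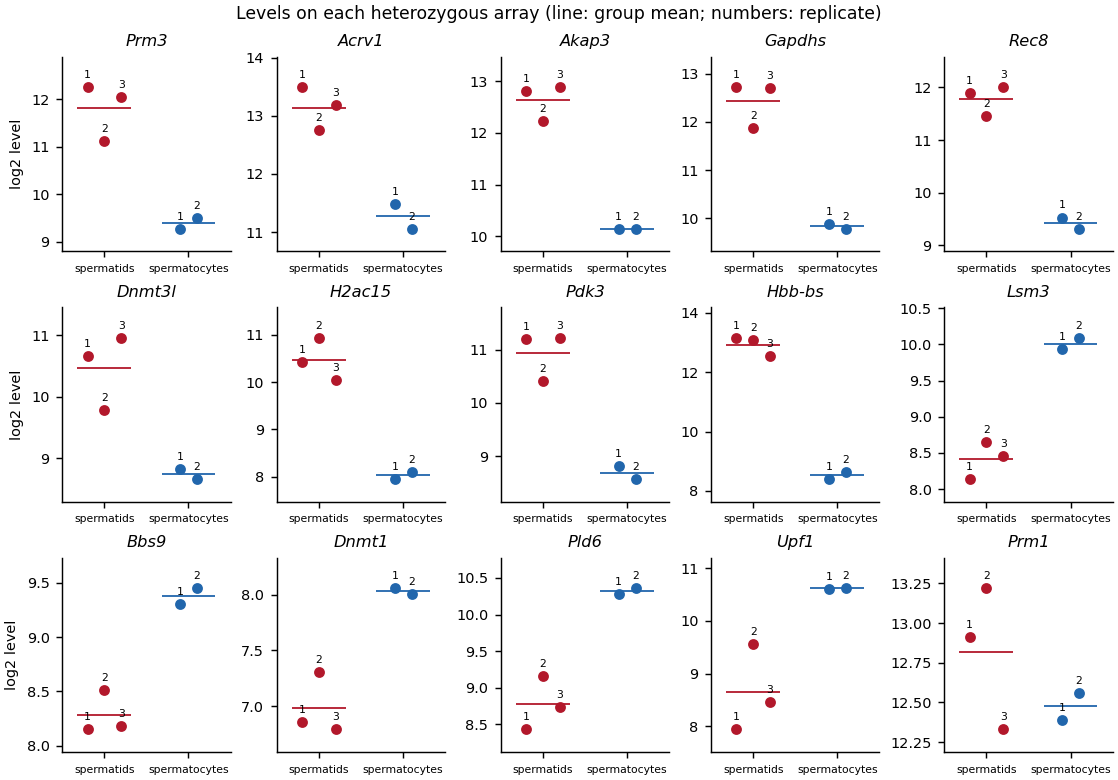
Log2 level (y axis) of 15 genes on each heterozygous array, spermatids at left and spermatocytes at right, with the replicate number beside each point and a line at the group mean; each panel has its own scale. Array 2 is the spermatid array nearest to the spermatocytes for most genes shown, and the groups overlap only in *Prm1*.

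Regulators of the haploid programme were called higher in 10 of 29 cases and lower in 2, against 10.5% and 11.0% of all genes, and the median was 0.02. Between 4 and 12 were higher and 0 to 2 lower with an array left out, the fewest without spermatocyte array 2. *Fhl5*, the coactivator of CREM, read 12.38, 11.77 and 12.46 in spermatids and 10.40 and 10.10 in spermatocytes (difference 1.95 ± 0.23, adjusted p = 0.00180). *Kif17*, the kinesin that in the mouse controls the place of this coactivator in the cell, read 9.64, 8.76 and 9.87 against 7.74 and 7.48, and rose by 1.81 ± 0.34. *Sox5*, *Rfx1* and *Sox30*, all DNA-binding regulators, rose by 1.93 ± 0.19, 1.84 ± 0.19 and 1.38 ± 0.26, and *Taf7l*, a subunit of the general factor TFIID in germ cells, by 1.72 ± 0.26. *Rfx2* read 12.98, 13.02 and 12.91 in spermatids and 13.22 and 13.12 in spermatocytes. *Sirt1* and *Tcfl5* fell by 0.87 (SE 0.22) and 0.81 (SE 0.17). *Crem* had 5 probes kept, which differed. One fell by 0.81 (SE 0.19), and the brightest of the 5 read 11.70, 11.48 and 8.46 in spermatids and 11.19 and 11.13 in spermatocytes, so that array 3 alone set its difference of -0.61 ± 0.79.

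CREM binds the cAMP response element and RFX factors bind the X-box, so the promoters of the tested genes were searched for these letters on both strands. The windows are RefSeq promoters of the build GRCm38.p6, from 250 bases before to 50 bases after a transcription start, and 11413 of the tested genes had at least 1. The cAMP response element TGACGTCA was present for 45 of 1220 genes called higher (3.69%), for 42 of 1278 called lower (3.29%) and for 3.03% of all 11413. The shares of both groups were near that of all genes. The X-box, spelled GTTGCC, any 2 bases, GG, any 1 base and AAC, was present for 10 genes called higher (0.820%), for 6 called lower (0.469%) and for 0.526% of all. These matches are a description of the letters and not of bound sites. The windows of 3 genes named here, *Ccin*, *Kif17* and *Mical3*, are shown because they hold a match and belong to the increases described above, with the match in capitals. *Ccin* lies on the + strand at chr4:43983254-43983553, *Kif17* on the + strand at chr4:138262001-138262300, and *Mical3* on the - strand at chr6:121130973-121131272, each written 5′ to 3′ along its gene. The element starts 50 bases before the start site in *Ccin* and 86 bases before it in *Kif17*, and the X-box of *Mical3* starts 64 bases before it. In *Mical3* the match is on the opposite strand, so its capitals show the reverse complement of the spelling above.
Ccin: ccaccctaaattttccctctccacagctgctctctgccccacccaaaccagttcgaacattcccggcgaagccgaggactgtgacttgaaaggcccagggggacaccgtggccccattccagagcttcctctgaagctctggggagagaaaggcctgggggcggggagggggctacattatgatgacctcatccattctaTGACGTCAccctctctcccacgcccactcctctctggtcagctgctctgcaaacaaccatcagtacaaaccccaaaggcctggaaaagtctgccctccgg
Kif17: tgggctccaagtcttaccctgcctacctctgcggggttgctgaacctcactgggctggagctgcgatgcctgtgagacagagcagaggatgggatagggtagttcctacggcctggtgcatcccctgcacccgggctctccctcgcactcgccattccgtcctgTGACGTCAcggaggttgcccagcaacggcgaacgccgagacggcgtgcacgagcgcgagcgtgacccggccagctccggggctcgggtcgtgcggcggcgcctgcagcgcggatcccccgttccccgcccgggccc
Mical3: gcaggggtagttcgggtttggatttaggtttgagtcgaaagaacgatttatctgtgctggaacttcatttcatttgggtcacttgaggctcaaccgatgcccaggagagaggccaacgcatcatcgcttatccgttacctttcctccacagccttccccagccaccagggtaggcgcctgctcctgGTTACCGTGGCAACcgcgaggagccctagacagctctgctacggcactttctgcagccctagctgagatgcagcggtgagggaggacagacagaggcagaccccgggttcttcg

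Of 61 histone genes tested, 25 were called higher (41.0%) and 5 lower (8.20%), against 10.5% and 11.0% of all genes, with a median of 0.56. The number higher was 31 without spermatid array 2, 5 without spermatocyte array 1 and 10 without spermatocyte array 2, and 1 to 3 were lower with an array left out. *H2ac15* read 10.42, 10.94 and 10.05 in spermatids and 7.95 and 8.10 in spermatocytes (difference 2.44 ± 0.24, adjusted p = 9.61e-04). *H2ac13*, *H2ac12* and *H2ac11* rose by 2.33 ± 0.24, 2.32 ± 0.32 and 2.27 ± 0.38, and *H2bc11* by 1.77 ± 0.31. Unlike most genes called higher, these 4 H2A genes were highest on spermatid array 2. They have near-identical copies and their probes may read several of them. The genes for H3.3 and H2A.Z went the other way. *H3f3b* read 8.12, 9.74 and 8.94 in spermatids and 10.68 and 10.74 in spermatocytes, with a difference of -1.78 ± 0.49, and *H2az1* fell by 0.88 (SE 0.09). *H4c2* fell by 1.34 (SE 0.28).

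X-linked genes were called higher in 124 of 449 cases (27.6%) and lower in 1 (0.223%), while autosomal genes were called higher in 9.91% and lower in 11.4%. The median difference was 0.22 for X-linked and -0.03 for autosomal genes, and 82.2% of X-linked genes had a positive difference against 45.2% of autosomal ones. No autosome had more than 13.4% of its genes called higher. The median level of X-linked genes was 7.13 to 7.19 on the spermatid arrays and 6.95 to 6.96 on the spermatocyte arrays, so that all 3 spermatid arrays lay above both spermatocyte arrays, array 2 included. Without spermatid array 2, 134 X-linked genes were called higher and 0 lower, and without spermatocyte array 1 or 2 the number higher was 47 or 40. The spermatocyte values lay near the median of an array, 6.87, so a decrease had little room. Probes were kept by their mean over all arrays, so a gene low in spermatocytes could be kept through its spermatid values. With 60% of probes left out, 122 of 280 X-linked genes were higher (43.6%, median 0.49), against 13.7% of autosomal genes. That filter uses the same mean more strictly, so it is no check of this selection. With all probes in the fit, 101 of the same 449 genes were higher (22.5%), against 8.19% of autosomal genes. Genes are not independent replicates, and no test across genes was made.

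By the 1 probe that stood for each gene, the X-linked gene with the largest difference was *H2ap*, a histone-related gene, which read 11.78, 10.41 and 11.80 in spermatids and 8.79 and 9.07 in spermatocytes (difference 2.40 ± 0.43, adjusted p = 0.00960). *Pdk3*, a kinase that inhibits pyruvate dehydrogenase, read 11.20, 10.41 and 11.22 against 8.81 and 8.57 (adjusted p = 0.00175). In both, the spermatid arrays lay above the spermatocyte arrays and array 2 was the lowest of them. *Asb9*, a substrate receptor of ubiquitin ligases, rose by 2.24 ± 0.35, *Tex13a*, a testis-expressed gene, by 2.23 ± 0.32 and *Sh3kbp1*, an endocytic adaptor, by 2.13 ± 0.41. The X-linked ribosomal protein gene *Rpl36a* rose by 1.95 ± 0.44. The 1 gene called lower, *4930567H17Rik*, changed by only -0.27 ± 0.07. Of 8 Y-linked genes tested 2 were called higher (25.0%) and 0 lower, against 10.5% and 11.0% of all genes. The 2 were *Ssty1*, a multicopy spermatid gene, at 2.35 and the deubiquitinase *Usp9y* at 1.13. The 7 mitochondrially encoded genes had 0 calls, and 0 of 7 had a positive difference. Their median level was 9.52, 10.02 and 7.62 in spermatids and 10.41 and 9.94 in spermatocytes. The groups thus overlapped, and spermatid array 3 lay far below the rest. The difference of *ND4* was only -0.02.

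**Figure D4:**
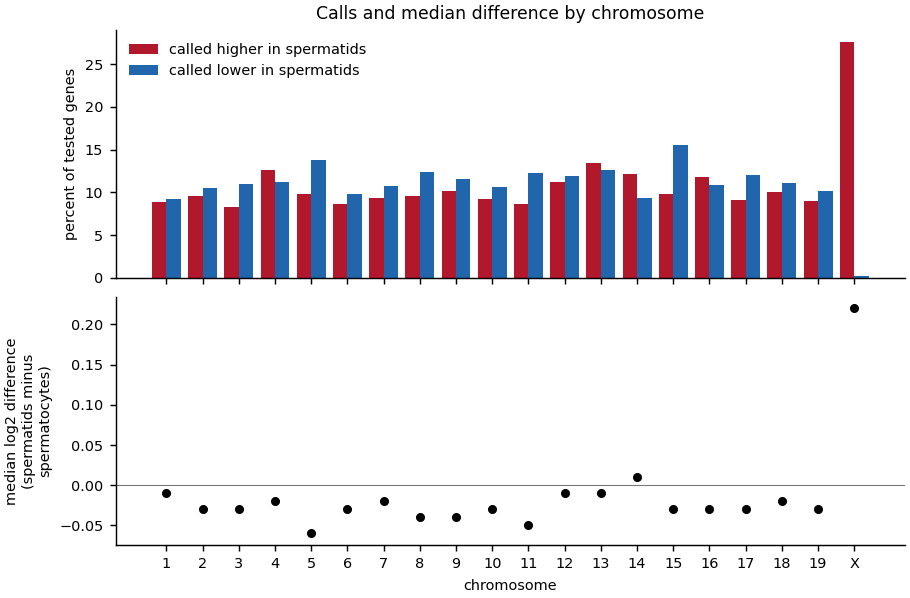
Percent of tested genes called higher or lower in heterozygous spermatids (upper panel) and the median log2 difference (lower panel) by chromosome. The X chromosome has 27.6% of its genes higher and 0.223% lower and a median of 0.22, and the medians of the autosomes lie between -0.06 and 0.01.

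The largest decreases were smaller than the largest increases. *Elfn2*, a membrane protein with leucine-rich repeats, read 7.89, 9.61 and 8.59 in spermatids and 11.41 and 10.91 in spermatocytes (difference -2.46 ± 0.66, adjusted p = 0.0442). *Upf1*, the helicase of nonsense-mediated mRNA decay, read 7.94, 9.56 and 8.46 against 10.61 and 10.62, a 3.89-fold difference. Array 2 was the highest spermatid array in both genes and still lay below both spermatocyte arrays. *Man2a2*, a Golgi mannosidase, fell by 2.22 (SE 0.58), *Phf2*, a histone demethylase, by 2.19 (SE 0.49), and *Exoc8*, a subunit of the exocyst, by 2.15 (SE 0.55). *Cenpo*, a centromere protein, fell by 1.96 (SE 0.41), *L3mbtl2*, a Polycomb group protein, by 1.89 (SE 0.36) and *Zfhx3*, a homeobox factor, by 1.79 (SE 0.27). *Lrrc61*, *2310022A10Rik*, *Samd7*, *Tmem106c* and *Chdh*, which encodes choline dehydrogenase, fell by 1.81 to 2.01. *Aire*, a regulator of transcription best known from the thymus, was in this group at -2.03 ± 0.52, but its spermatocyte arrays read 10.70 and 8.77, against 7.10, 8.45 and 7.58 in spermatids, and the wild type difference was 0.02.

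Of 18 genes of the synaptonemal complex and chromosome axis, 1 was called higher (5.56%) and 3 lower (16.7%), against 10.5% and 11.0% of all genes, with a median of -0.28. Of 28 recombination genes 0 were called in either direction (median -0.12). *Rec8*, the kleisin subunit of meiotic cohesin, was the 1 called higher. It read 11.90, 11.46 and 12.00 in spermatids and 9.53 and 9.32 in spermatocytes, a 5.15-fold difference (2.37 ± 0.16, adjusted p = 1.93e-04). *Stag3*, another subunit of the same complex, read 11.32, 11.69 and 11.47 against 12.23 and 12.12 and fell by 0.68 (SE 0.12). The groups did not overlap in either gene, and array 2 was nearest to the spermatocytes in both. *Terb2*, which attaches telomeres to the nuclear envelope, fell by 0.51 (SE 0.10), and *Sun2*, of the nuclear envelope, by 0.80 (SE 0.17). *Spo11*, the enzyme that makes meiotic breaks, read 11.59, 11.84 and 11.61 in spermatids and 12.34 and 11.97 in spermatocytes and was not called. The axis had 1 to 2 higher and 1 to 4 lower, and recombination 0 to 1 higher and 0 to 4 lower, with an array left out, its 1 and 4 calls coming without spermatid array 2.

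Of 31 genes of sex chromosome silencing and DNA damage signalling, 0 were called higher and 9 lower (29.0%, median -0.33). Over all genes 10.5% were called higher and 11.0% lower. With an array left out the counts were 0 to 1 and 3 to 13. *Bard1*, the partner of BRCA1, read 7.84, 8.29 and 8.20 in spermatids and 9.08 and 9.18 in spermatocytes, and *Rad1*, of the checkpoint clamp, fell by 1.06 (SE 0.16). *Parp2* and *Parp1*, which add ADP-ribose at breaks, fell by 0.86 (SE 0.18) and 0.78 (SE 0.20). Of 16 piRNA pathway genes 0 were called higher and 3 lower (18.8%, median -0.55), and 0 and 1 to 6 with an array left out. *Pld6*, a mitochondrial enzyme of piRNA biogenesis, read 8.43, 9.16 and 8.74 in spermatids and 10.28 and 10.36 in spermatocytes (difference -1.54 ± 0.33, adjusted p = 0.0185). *Tdrd3* and *Exd1* fell by 0.83 (SE 0.14) and 0.52 (SE 0.11). *Piwil2*, a PIWI protein, read 9.92, 11.43 and 10.46 against 12.08 and 12.01 and *Piwil1* 10.69, 12.61 and 11.45 against 12.58 and 12.49, and neither was called. In both genes array 2 was the highest spermatid array.

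Genes of the meiotic divisions and the cell cycle were called in both directions, 7 higher (12.3%) and 12 lower (21.1%) of 57, against 10.5% and 11.0% of all genes. *Ccnd3*, a D-type cyclin, read 10.60, 9.43 and 10.90 in spermatids and 7.97 and 7.77 in spermatocytes, and *Skp2*, a ubiquitin ligase subunit that acts on cell cycle inhibitors, rose by 2.28 ± 0.35. *Cenpa*, the centromeric histone H3, rose by 1.30 ± 0.21, and the phosphatases *Cdc25c* and *Cdc25a* by 1.24 ± 0.26 and 0.85 ± 0.17. The inhibitors *Cdkn2d* and *Cdkn2c* fell by 1.23 (SE 0.23) and 0.92 (SE 0.25), and the checkpoint genes *Mad1l1* and *Bub1b* by 0.94 (SE 0.12) and 0.86 (SE 0.20). Of 43 replication genes 4 were called higher (9.30%) and 8 lower (18.6%). *Mcm4*, *Mcm5* and *Mcm2*, of the replicative helicase, rose by 1.01 to 1.08 and *Fen1*, the flap endonuclease, by 1.34 ± 0.17, whereas *Rrm2*, of ribonucleotide reductase, fell by 1.33 (SE 0.30) and *Pold3*, of DNA polymerase delta, by 1.03 (SE 0.25). *Mcm4* read 8.73, 9.03 and 9.31 in spermatids and 7.96 and 7.94 in spermatocytes. With an array left out the cell cycle had 3 to 8 higher and 3 to 19 lower and replication 1 to 4 higher and 1 to 12 lower, the fewest without spermatocyte array 2.

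Genes of general RNA and protein machinery were mostly called lower where they were called. Of 66 splicing factors and hnRNPs 1 was called higher and 16 lower (median -0.34), of 74 cytosolic ribosomal proteins 2 and 17 (median -0.26), of 68 mitochondrial ribosomal proteins 1 and 20 (median -0.50), of 73 subunits of the respiratory chain 1 and 13 (median -0.27) and of 42 proteasome genes 0 and 5 (median -0.19). Over all genes 11.0% were called lower and the median was -0.02. The proteasome share called lower, 11.9%, was near that of all genes. *Lsm3*, of the Sm-like ring of U6 RNA, read 8.14, 8.65 and 8.46 in spermatids and 9.93 and 10.09 in spermatocytes (difference -1.59 ± 0.25, adjusted p = 0.00560). *Hnrnpm* and *U2af1* fell by 1.59 (SE 0.41) and 1.21 (SE 0.28), and the core proteins *Snrpb* and *Snrpd3* by 1.20 (SE 0.28) and 1.14 (SE 0.18). *Mrps10*, *Mrps5* and *Mrps23*, of the small mitochondrial subunit, fell by 0.97 to 0.99. *Uqcrq* and *Atp5g3*, of respiratory complex III and of ATP synthase, fell by 1.39 (SE 0.36) and 1.05 (SE 0.28). *Rpl31* and *Rps3*, of the cytosolic ribosome, fell by 0.99 (SE 0.23) and 0.88 (SE 0.21). Ribosomal protein genes have many processed copies, and which copies their probes read is uncertain. Without spermatid array 2 the counts lower were 23, 18, 24, 13 and 10 in the same order, without spermatocyte array 1 they were 4, 6, 8, 4 and 0, and without spermatocyte array 2 they were 4, 4, 1, 3 and 0.

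Other gene families were called in both directions, and several of their shares lay near the 10.5% higher and 11.0% lower of all genes. Zinc finger genes of the Zfp series were higher in 12 (5.43%) and lower in 36 (16.3%) of 221 cases, with *Zfp451* at 1.71 ± 0.24 and *Zfp956* at -1.43 ± 0.29. Of 67 heat shock and DnaJ genes 6 were higher (8.96%) and 12 lower (17.9%). *Hspa1l*, the spermatid form of HSP70, read 12.19, 10.97 and 11.78 in spermatids and 9.48 and 9.29 in spermatocytes, while *Hspa4l* fell by 1.30 (SE 0.34). Ubiquitin genes gave 8 higher (11.8%) and 4 lower (5.88%) of 68, led by the deubiquitinase *Usp50* at 2.26 ± 0.35. Kinesins gave 4 higher and 4 lower of 30 (13.3% each), and *Kif2b*, a microtubule depolymerase, read 13.25, 12.73 and 13.16 in spermatids and 11.28 and 10.95 in spermatocytes. Of 44 genes of mRNA storage and translation 2 were higher and 2 lower (4.55% each). There *Samd4*, the Smaug RNA-binding repressor, rose by 2.48 ± 0.27 and *Elavl1*, an RNA-stabilising protein, fell by 0.77 (SE 0.08). Autophagy and lysosome genes gave 1 higher (3.45%) and 5 lower (17.2%) of 29, with *Lamp2* at 1.60 ± 0.27 and *Wipi2* at -1.27 ± 0.27. With an array left out the counts higher and lower were 5 to 21 and 10 to 53 for Zfp genes, 2 to 9 and 2 to 14 for heat shock genes, and 2 to 11 and 0 to 11 for ubiquitin genes. They were 2 to 6 and 0 to 8 for kinesins, 1 to 4 and 1 to 8 for mRNA storage, and 1 to 3 and 1 to 5 for autophagy.

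Cholesterol synthesis had 3 of 19 genes called higher (15.8%, against 10.5% of all genes) and 0 lower, and 2 to 4 and 0 to 1 with an array left out. *Cyp51*, lanosterol demethylase, which in male germ cells is driven by cAMP-responsive transcription, read 11.16, 10.26 and 11.21 in spermatids and 8.86 and 8.59 in spermatocytes (difference 2.15 ± 0.27, adjusted p = 0.00224), and *Insig1* and *Sqle* rose by 1.55 ± 0.31 and 1.18 ± 0.17. Immediate early and dissociation stress genes, which can respond to cell isolation, were called higher in 4 of 20 cases and lower in 2, where 10.5% and 11.0% of all genes were called, and in 1 to 4 and 0 to 2 with an array left out. *Klf4*, a factor also known from round spermatids, rose by 1.96 ± 0.40, *Btg1* by 1.94 ± 0.22, *Dusp1* by 1.79 ± 0.38 and *Jund* by 1.46 ± 0.33, while *Ddit3* fell by 0.65 (SE 0.17) and *Mt2* by 0.60 (SE 0.14). The mean log2 level of the 20 genes was 8.71, 9.05 and 8.72 in spermatids and 8.12 and 8.22 in spermatocytes, and the part of cell isolation in the results was not tested.

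Of 18 genes of DNA methylation and methyl-CpG binding, 2 were called higher (11.1%) and 4 lower (22.2%), against 10.5% and 11.0% of all genes. Besides *Dnmt3l*, *Mbd4*, a glycosylase that binds methylated CpG, rose by 1.51 ± 0.27. *Dnmt1*, the maintenance methyltransferase, read 6.86, 7.31 and 6.79 in spermatids and 8.06 and 8.01 in spermatocytes (difference -1.05 ± 0.15, adjusted p = 0.00347). The spermatid values lay near the median of the array. *Uhrf1*, which recruits DNMT1 to replicated DNA, fell by 0.84 (SE 0.18), and *Mbd3* and *Ctcf* by 0.72 (SE 0.10) and 0.52 (SE 0.10). Between 0 and 2 were higher and 2 to 6 lower with an array left out, with 0 and 2 without spermatocyte array 2. Of 33 imprinted genes 6 were higher (18.2%) and 4 lower (12.1%), and 1 to 5 and 0 to 4 with an array left out. *Rasgrf1*, a paternally expressed exchange factor, rose by 1.76 ± 0.23 and *Kcnq1ot1*, a noncoding RNA antisense to *Kcnq1*, by 1.34 ± 0.27, whereas *Grb10* fell by 0.98 (SE 0.26).

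Different probes of a gene did not always move together. Among 4768 genes with at least 2 kept probes, 1651 had a called probe and 22 had probes called in opposite directions. *Tnks*, a poly-ADP-ribose polymerase of telomeres and signalling, had a probe that read 10.69, 10.02 and 10.61 in spermatids and 8.73 and 8.66 in spermatocytes, and another that read 8.21, 8.52 and 8.22 against 9.52 and 9.45. The arrays of the groups did not overlap on either probe, and the differences were 1.75 ± 0.24 and -1.16 ± 0.16. *Tbc1d14*, *4930430F08Rik*, *Ift80* and *Eya3* also had such pairs, the probes of *Ift80* at 0.89 ± 0.19 and -1.47 ± 0.34. Which transcripts these probes read is not known here. The number of such genes was 89 without spermatid array 2 and 3 or 4 without spermatocyte array 1 or 2.

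The heterozygous difference was set against the wild type one, which is the same pair of chips. Across the 27986 probes the 2 differences correlated at r = 0.952, as a description of probes that share chips and normalisation. Of the 4983 heterozygous calls 4391 (88.1%) were called in wild type cells too, which is 58.2% of the 7546 wild type calls (27.0% of probes), and all 4391 had the same sign. The median ratio of the heterozygous to the wild type difference over these was 0.915. The interaction of genotype and cell type tests directly whether the differences depend on genotype. It had 0 of 27986 probes called (0.0%), with a smallest adjusted p of 1.0, and 566 probes had an unadjusted p under 0.05 in limma, where uniform p-values would give 1399.3. The number with an unadjusted p under 0.05 was 1662 without spermatid array 2 and 1115 without spermatid array 1, again with 0 called. *Aire*, with an interaction of -2.05, and *Dnmt3l*, with a wild type difference of 2.44, were not called in this test. Among the 5 probes with the smallest interaction p, 4 carry no gene name and 1 is of *Ube3b*, a ubiquitin ligase, which read 9.93, 9.76 and 9.98 in heterozygous spermatids and 9.72 and 9.77 in heterozygous spermatocytes, while its wild type difference was -0.55.

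**Figure D5:**
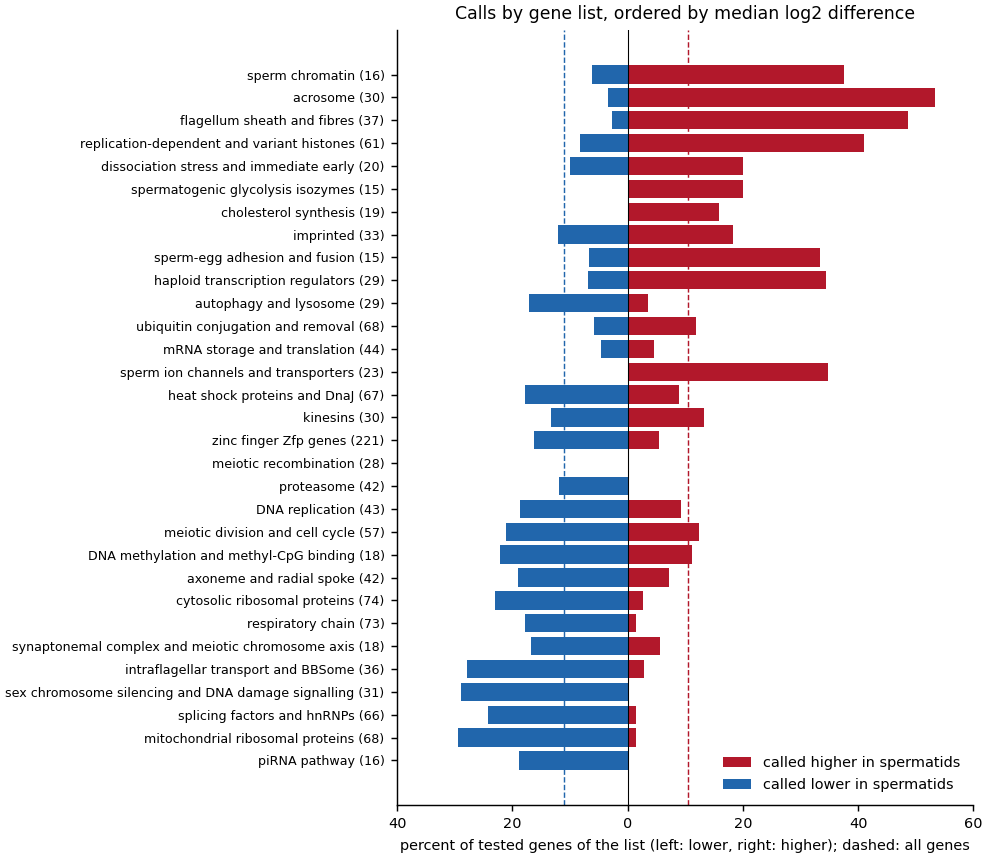
Percent of the tested genes of each list that were called higher (right) or lower (left) in heterozygous spermatids, ordered by the median log2 difference, with the number of tested genes in brackets and dashed lines at the shares of all genes (10.5% and 11.0%). Acrosome genes reach 53.3% higher, and mitochondrial ribosomal protein genes 29.4% lower.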

How the data were processed

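The authors hybridised RNA to Illumina mouse BeadChips, read in BeadStudio, and deposited log2 values after variance stabilisation and quantile normalisation with lumi, for which versions are not given in the sources used here. A second deposited table has 22 columns that match no sample label and were not used. From the log2 values, the 40% of the 46643 probes with the lowest mean over the 11 arrays were left out, and limma 3.58.1 (R 4.3.3) fitted 4 group means to all 11 arrays. P-values of 4 contrasts were adjusted together by the Benjamini-Hochberg method with a threshold of 0.05, and those of the interaction by themselves. A gene was represented by its kept probe with the highest mean. Genes were named by rule: the top 15 in each direction by size of change, from called probes with no overlap between the groups, up to 6 called genes per list and direction and up to 3 uncalled ones of highest mean, defining markers, the 5 largest X-linked changes, 5 genes with opposed probes, the 5 smallest interaction p and a few fixed genes. The Y-linked genes were named after their values were seen, as were the 3 promoters and the motif spellings. Members and lists were chosen with earlier results of these data known. Nothing in the labels says which arrays shared mice beyond the pools of 10, and p-values measure the spread between preparations. On simulated data with the comparison of heterozygous spermatids and spermatocytes over 27986 probes, 71.6% of changes of log2 1 and 31.1% of log2 0.5 were called. There few probes changed, the noise was normal and p-values were adjusted within this contrast alone. These shares are therefore not the rates of the calls above.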

Additional observations from a re-analysis of the deposited data

How the results depend on the processing

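Against 4983 called probes, array weights gave 8144 (3658 higher, 4486 lower), a fit of the 5 heterozygous arrays alone 1997 (965 and 1032) and a minimum difference of log2 1 gave 1955 (1466 and 489). Cyclic loess lowered the number called lower to 1648. Leaving out both spermatid arrays numbered 2, chosen after seeing the data, gave 7870 (3646 and 4224). Leaving out 1 array at a time gave 1655 to 7507 calls, 866 to 3506 higher and 768 to 4001 lower. X-linked genes called higher numbered 52 in the heterozygous fit, 69 at a minimum of log2 1 and 40 to 134 with 1 array left out, against 124, and genes with opposed probes 3 to 89. With the replicate block, 2003 probes were called (1256 higher, 747 lower) and 64 X-linked genes were higher. Whether arrays of the same number came from the same mice is not known. Same-numbered heterozygous arrays had deviations from their group means that correlated at -0.07 for both pairs. The wild type pairs correlated at -0.04, 0.26 and -0.12. The deviations of the 2 heterozygous spermatocyte arrays are mirror images, so these values cannot decide the pairing. Of the 172 called genes named, 66 were called under every alternative and 77 with any 1 array left out, and the heterozygous fit alone lost the call of 75. The interaction had 0 calls under every alternative run. Averaging the probes of a gene turned the sign of *4930430F08Rik* (0.42), *Tbc1d14* (0.80) and *Dnali1* (0.01). Of uncalled genes, *Clu* turned to -0.21 with array weights and to -0.49 without both arrays numbered 2, and ranged from -0.49 to 0.93 with 1 array left out. *Crem* turned to 0.43 with the block and ranged from -1.19 to 0.43, the value without spermatid array 3, *Hspa2* to 0.00 with the block and 0.06 with cyclic loess, and *Ldhc* to 0.01 with array weights, 0.08 with cyclic loess, 0.03 without both arrays numbered 2 and -0.05 to 0.03 with 1 array left out. The causes were not tested.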
